A study of Homo sapiens with 3 samples.

Results

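The 9 genes described here encode proteases that cut the extracellular matrix, the urokinase system that activates plasminogen on the cell surface, and the inhibitors that hold matrix proteases in check. They are MMP1, MMP7, MMP9, MMP13, MMP14, PLAU, PLAUR, TIMP1 and TIMP2, 9 of the 60504 genes in the deposited expression table. They were picked by name for their part in cell migration, and all 9 were found in the table by Ensembl identifier. RNA-Seq was used on DLD1, an established human colorectal cancer cell line, in 3 libraries. One library came from wild type DLD1 control cells and 2 came from DLD1 cells in which BEX2 had been knocked out by CRISPR/Cas9, labelled KO1 and KO2 and here called clone 1 and clone 2. No drug or transfection is named for any of them. The study screened clones by sequencing, but the labels do not state that KO1 and KO2 are separate clones, and they are taken as such here. Each is a single library, and the control cells have 1 library as well. The only spread between libraries of one genotype is thus the difference between the clones. The study asked how loss of BEX2 alters migration and invasion, and these genes bear on the matrix side of that question.

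Matrix metalloproteinases are zinc enzymes made as inactive proenzymes. MMP1 and MMP13 are collagenases that cut fibrillar collagen, MMP9 is a gelatinase, MMP7 (matrilysin) is made chiefly by epithelial cells and glandular tumours, and MMP14 is anchored in the membrane and activates other proteases at the cell front. PLAU, the urokinase-type plasminogen activator, binds its receptor PLAUR, is held there by a lipid anchor of the receptor, and turns plasminogen into plasmin, which digests fibrin and matrix proteins. TIMP1 and TIMP2 bind active metalloproteinases and block them, and TIMP2 also takes part in the activation of proMMP2 by MMP14. In colorectal tumours much of the MMP1, MMP9 and PLAU is known to come from stromal and inflammatory cells, which a pure cell line lacks.

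Levels are given in FPKM, the fragments of a gene divided by its exon length and by library size, so that genes and libraries can be set side by side. Multiplied by the exon length, all 27 values of the 9 genes came out as whole reads, and these reads give the counting error behind each level. The depth was 47458845 reads in the control library, 35593992 in clone 1 and 47722383 in clone 2. Intervals below are 95% and exact (Poisson for a level, Clopper-Pearson for a ratio) and cover counting error only, not the variation between cultures. With 1 control library, no p-value was computed. BEX2 was listed at 0 in all 3 libraries, so its mRNA gave no check of the labels. The libraries were of epithelial cells, since the 8 epithelial markers summed to between 1619 and 1856 FPKM, while the 6 fibroblast markers summed to between 0.129 and 0.634 FPKM, the 3 endothelial markers to between 0.0649 and 0.0784 FPKM and the 6 leukocyte markers to between 0.770 and 1.04 FPKM. Of these markers PTPRC, LYZ, MS4A1, CDH5, COL3A1 and LUM had no read in any library, and the others did. CD14, a monocyte marker, was at 0.793, 0.760 and 0.700 FPKM in control cells, clone 1 and clone 2, PDGFRB, a receptor of fibroblasts and pericytes, at 0.0886, 0.602 and 0.0411 FPKM, and ITGAM, a myeloid integrin, at 0.0260, 0.00992 and 0.311 FPKM. The fibroblast collagen COL1A1 was at 0.0408, 0.0315 and 0.0875 FPKM, and the endothelial VWF lay between 0.0649 and 0.0784 FPKM. The order of libraries differed among markers of one cell type, but several orders rest on few reads or close levels. PDGFRB (30, 153 and 14 reads in control cells, clone 1 and clone 2) was highest in clone 1, as MMP1 was. COL1A1 (19, 11 and 41 reads) was highest in clone 2 and at close levels in control cells and clone 1. ITGAM (7, 2 and 84 reads) was highest in clone 2, as PLAU, PLAUR and MMP7 were. CD14 (71, 51 and 63 reads) was at close levels in all 3 libraries. The epithelial markers KRT20 (18.9, 117 and 0.931 FPKM in control cells, clone 1 and clone 2) and VIL1 (3.61, 13.2 and 0.221 FPKM), which mark intestinal differentiation, differed between the clones more than any of the 9 genes above 1 FPKM. The part of these markers in the results below was not tested.

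The sequences just before the transcription start are shown for the 3 genes with at least 2-fold more FPKM in clone 2 than in clone 1, PLAU, PLAUR and MMP7, because the regulation of matrix protease genes is known to run through short motifs there. Each run is the 250 bases before a RefSeq start on GRCh38.p14, read 5′ to 3′ on the gene's strand, and capitals mark the motifs that were searched. These were TGANTCA (AP-1), NTCAAAG (TCF/LEF), GGANTTTCC (a kappaB core), AGGAAG (ETS) and the TATA box, with the letters TATAAA, on both strands, and no capitals overlap between motifs.

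MMP7, chr11:102530748-102530997, minus strand: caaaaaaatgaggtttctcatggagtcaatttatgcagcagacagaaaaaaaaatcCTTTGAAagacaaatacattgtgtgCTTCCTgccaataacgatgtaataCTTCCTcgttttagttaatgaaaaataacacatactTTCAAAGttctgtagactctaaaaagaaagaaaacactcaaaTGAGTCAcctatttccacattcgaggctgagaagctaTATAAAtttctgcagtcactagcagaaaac
PLAUR, chr19:43670170-43670419, minus strand: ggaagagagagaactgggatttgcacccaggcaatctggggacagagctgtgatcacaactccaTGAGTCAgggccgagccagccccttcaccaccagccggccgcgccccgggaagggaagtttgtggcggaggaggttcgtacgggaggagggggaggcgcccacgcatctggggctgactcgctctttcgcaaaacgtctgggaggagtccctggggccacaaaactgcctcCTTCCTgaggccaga
PLAU, chr10:73910882-73911131, plus strand: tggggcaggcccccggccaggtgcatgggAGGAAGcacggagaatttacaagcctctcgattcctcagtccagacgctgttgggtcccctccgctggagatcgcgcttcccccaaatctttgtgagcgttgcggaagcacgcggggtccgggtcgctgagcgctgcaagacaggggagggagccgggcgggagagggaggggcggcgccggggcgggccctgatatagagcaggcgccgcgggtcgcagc

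The MMP7 sequence held the AP-1 letters 67 to 61 bases before the start, TCF/LEF letters at 194 to 188 and 109 to 103, ETS letters at 169 to 164 and 145 to 140, and a TATA box at 30 to 25. The PLAUR sequence held the AP-1 letters at 186 to 180 and ETS letters at 15 to 10. The PLAU sequence shown held ETS letters only, at 221 to 216, and the window of the other RefSeq start of PLAU held none of the motifs. Windows of 300 bases, from 250 before to 50 after the start, were given for 5 of the 9 genes. The window of TIMP1, which differed little between the libraries, held ETS letters too, at 87 to 82, and no other motif. The MMP14 window held none of the motifs. The ETS letters were thus in 4 of the 6 windows given and were not particular to the 3 genes shown. Of 35116 promoters of that length, 7.71% hold the AP-1 letters, 12.8% the TCF/LEF letters, 1.64% the kappaB core, 33.6% the ETS letters and 11.5% the TATA box. These matches describe the sequence and are no evidence of binding in DLD1 cells.

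The 9 genes spanned a wide range of levels. TIMP1 was the most abundant in every library, near 90 to 101 FPKM, and its mean level (control value averaged with the mean of the clones) lay above that of 97.4% of the 11675 genes with a mean of at least 1 FPKM. PLAUR and TIMP2 lay in the middle of those genes, above 47.0% and 39.1% of them, and PLAU near the bottom, above 6.32%. MMP14, MMP1, MMP7 and MMP13 were under 1 FPKM in every library, and MMP9 had no read in any. Per length, TIMP1 was 103, 119 and 120 times the sum of the 5 metalloproteinases in control cells, clone 1 and clone 2. These ratios hold for the 5 only, since 18 other metalloproteinases summed to 15.1, 18.6 and 16.5 FPKM, most of it from MMP15.

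**Figure D1:**
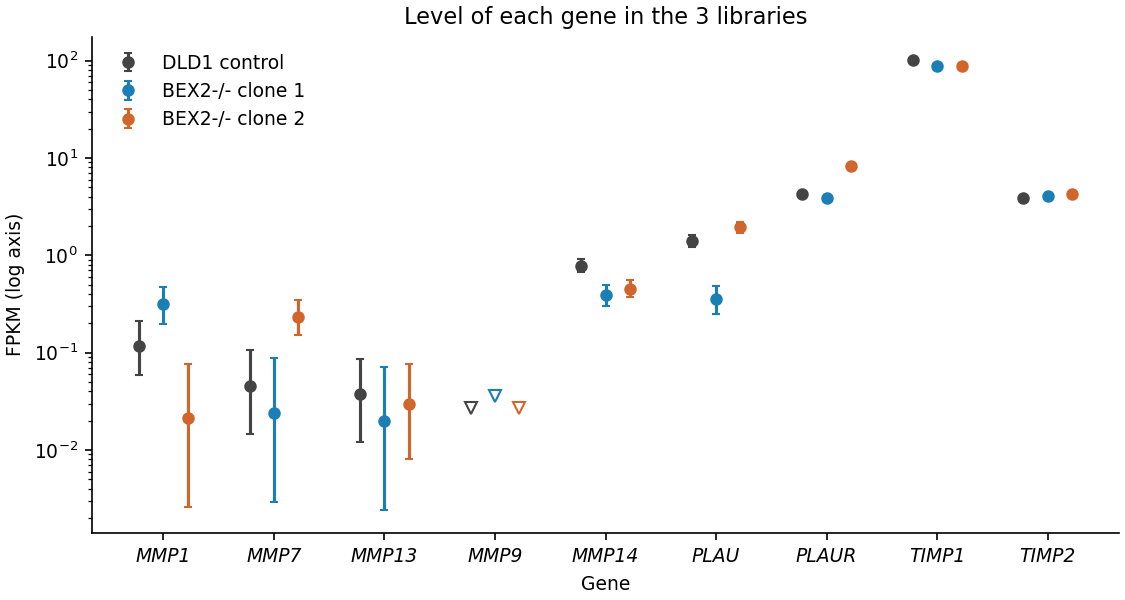
FPKM (log axis) of the 9 genes in DLD1 control cells, clone 1 and clone 2. Points are single libraries with 95% Poisson intervals, and open triangles mark MMP9, which had no reads, at the level of 3 reads. TIMP1 sits near 100 FPKM, PLAUR and TIMP2 between 3.86 and 8.22 FPKM, and the metalloproteinases under 1 FPKM.

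Urokinase and its receptor were lowest in clone 1 and highest in clone 2. PLAU (ENSG00000122861, chromosome 10, 73909177 to 73917497, plus strand of GRCh38) was at 1.41 FPKM in the control library, 0.352 in clone 1 and 1.93 in clone 2, from 197, 37 and 272 reads. Clone 1 thus stood apart below, and the control lay between the clones. The ratio to the control was 0.250 in clone 1 (interval 0.171 to 0.357) and 1.37 in clone 2 (1.14 to 1.66), and clone 2 was 5.48-fold above clone 1 (3.88 to 7.95). The mean of the clones was 1.14 ± 1.12 FPKM (SD, n = 2), which lay 0.237 SD from the control value. Annotated exons of C10orf55, on the opposite strand, cover 31.1% of the exon bases of PLAU, and this gene was listed at 0 in control cells and clone 1 and at 0.0583 FPKM in clone 2.

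PLAUR (ENSG00000011422, chromosome 19, 43646095 to 43670547, minus strand) was at 4.28 FPKM in control cells, 3.86 in clone 1 and 8.22 in clone 2, from 905, 613 and 1749 reads. Here clone 2 stood apart above, and control cells and clone 1 were close. The ratio to the control was 1.92 in clone 2 (1.77 to 2.08) and 0.903 in clone 1, where the interval of 0.814 to 1.00 reached no difference. Clone 2 was 2.13-fold above clone 1 (1.94 to 2.34). The mean of the clones was 6.04 ± 3.08 FPKM (SD, n = 2), 0.573 SD from the control. PLAUR and PLAU did not keep a fixed proportion, since the receptor was 3.04 times the protease per length in control cells (2.60 to 3.57), 11.0 times in clone 1 (7.87 to 15.7) and 4.26 times in clone 2 (3.74 to 4.85).

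The secreted metalloproteinases were close to the limit of detection. MMP1 (ENSG00000196611, chromosome 11, 102789920 to 102798160, minus strand) had 11 reads in the control library, 22 in clone 1 and 2 in clone 2, or 0.118, 0.314 and 0.0213 FPKM. It ran opposite to the urokinase genes, highest in clone 1 and lowest in clone 2. The ratio to the control was 2.67 in clone 1 (1.24 to 6.09) and 0.181 in clone 2 (0.0195 to 0.828), and that of clone 2 to clone 1 was 0.0678 (0.00773 to 0.276). Exons of the pseudogene WTAPP1, on the opposite strand, cover 7.61% of the exon bases of MMP1, and WTAPP1 was at 0.0253, 0.0506 and 0.0126 FPKM. No counting interval was computed for WTAPP1, so at these low levels its libraries were not ordered.

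MMP7 (ENSG00000137673, chromosome 11, 102520508 to 102530753, minus strand) had 5 reads in control cells, 2 in clone 1 and 26 in clone 2, or 0.0454, 0.0242 and 0.235 FPKM. Only clone 2 stood apart, with a ratio to the control of 5.17 (1.95 to 17.2), whereas the ratio of clone 1 to the control was 0.533 with an interval from 0.0508 to 3.26. Clone 2 was 9.70-fold above clone 1 (2.43 to 84.3). MMP1 thus exceeded MMP7 in clone 1, at a ratio per length of 13.0 (3.19 to 114), and MMP7 exceeded MMP1 in clone 2, at a ratio of MMP1 to MMP7 of 0.0907 (0.0104 to 0.362).

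MMP13 (ENSG00000137745, chromosome 11, 102942995 to 102955734, minus strand) had 5, 2 and 4 reads, or 0.0372, 0.0198 and 0.0296 FPKM, and no difference between libraries was detectable at this depth. Its ratio to the control was 0.533 in clone 1 (0.0508 to 3.26) and 0.796 in clone 2 (0.158 to 3.70). MMP9 (ENSG00000100985, chromosome 20, 46008908 to 46016561, plus strand) was listed at 0 in all 3 libraries. A count of 0 allows up to 3 reads (a one-sided 95% limit), which would be 0.0271 FPKM in control cells, 0.0361 in clone 1 and 0.0269 in clone 2.

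MMP1, MMP7 and MMP13 lie in a cluster of 9 metalloproteinase genes on chromosome 11, all on the minus strand, in the order MMP7, MMP20, MMP27, MMP8, MMP10, MMP1, MMP3, MMP12 and MMP13. The whole cluster gave 28 reads in control cells, 32 in clone 1 and 37 in clone 2. MMP27, MMP8 and MMP12 had none. MMP10 and MMP3, stromelysins that flank MMP1, had 5 and 1 reads in control cells, 3 and 3 in clone 1, and 0 and 0 in clone 2. MMP20, an enzyme of tooth enamel next to MMP7, had 1, 0 and 5 reads. The neighbours of MMP1 were thus read in control cells and clone 1 and not in clone 2, while the highest count of the gene next to MMP7 was in clone 2, although these counts are too small to separate the libraries one gene at a time. The 6 neighbours belong to a list of 18 further metalloproteinases, and their order along the cluster was examined after the values were seen.

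**Figure D2:**
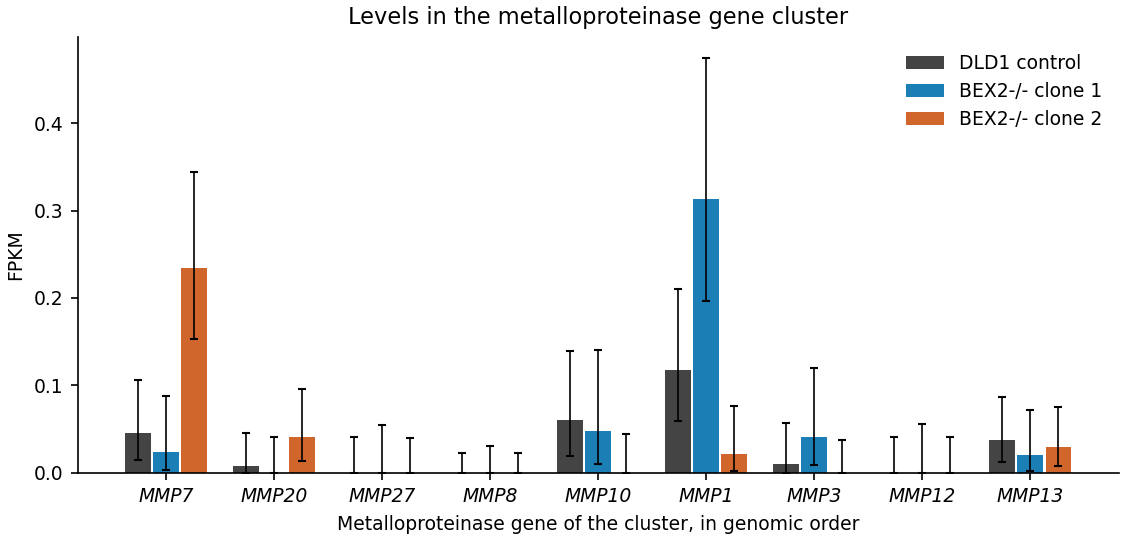
FPKM of the 9 metalloproteinase genes of the chromosome 11 cluster, in genomic order, in DLD1 control cells, clone 1 and clone 2. Bars are single libraries with 95% Poisson intervals. MMP7 reaches 0.235 FPKM in clone 2 only, MMP1 reaches 0.314 FPKM in clone 1, and the other genes stay under 0.1 FPKM.

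MMP14, the membrane-type protease, was lower in both clones. MMP14 (ENSG00000157227, chromosome 14, 22836557 to 22849027, plus strand) was at 0.784 FPKM in the control library, 0.390 in clone 1 and 0.455 in clone 2, from 166, 62 and 97 reads. Both clones lay below the control, and the clones lay close to each other. The ratio to the control was 0.498 in clone 1 (0.366 to 0.670) and 0.581 in clone 2 (0.448 to 0.751), and that of clone 2 to clone 1 was 1.17, with an interval of 0.840 to 1.63. The mean of the clones was 0.423 ± 0.0461 FPKM (SD, n = 2), 7.83 SD below the control value, but how far control libraries differ among themselves is unknown. An SD of 2 clones depends on how close they happen to lie, and the same distance was 683 SD for TIMP1, at ratios of 0.882. Among the 23778 genes with at least 3 reads in some library, 3.81% had ratios of 0.581 or lower in both clones. That limit is the milder ratio of MMP14, the one in clone 2, and 3 reads were the lowest value allowed.

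The inhibitors differed little between libraries. TIMP1 (ENSG00000102265, chromosome X, 47582313 to 47586789, plus strand) was at 101 FPKM in the control library, 89.0 in clone 1 and 89.1 in clone 2, from 7384, 4884 and 6550 reads. The clones were alike and both lay below the control, at ratios of 0.882 (0.850 to 0.914) and 0.882 (0.853 to 0.912). The mean of the clones was 89.1 ± 0.0174 FPKM (SD, n = 2), 683 SD below the control, a distance that reflects the small SD. Clone 2 was 1.00 times clone 1 on the deposited FPKM, with an interval of 0.964 to 1.04. A change of this size was common, since 7.91% of the 11675 genes were at least as low in both clones on the scale of log2(FPKM + 1). Both ratios share the 1 control value.

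TIMP2 (ENSG00000035862, chromosome 17, 78852977 to 78925387, minus strand) was at 3.86 FPKM in control cells, 4.09 in clone 1 and 4.23 in clone 2, from 1033, 821 and 1137 reads. Both clones were slightly above the control, at ratios of 1.06 (0.966 to 1.16) and 1.09 (1.01 to 1.19). On the log2(FPKM + 1) scale, 22.3% of genes reached at least the smaller of these, that of clone 1, in both clones. Clone 2 was 1.03 times clone 1 (0.943 to 1.13). The mean of the clones was 4.16 ± 0.0954 FPKM (SD, n = 2), 3.13 SD above the control. TIMP1 was 26.1, 21.7 and 21.1 times TIMP2 per length in control cells, clone 1 and clone 2. TIMP2, which acts together with MMP14, was 4.93 times MMP14 in control cells (4.18 to 5.85), 10.5 times in clone 1 (8.10 to 13.8) and 9.29 times in clone 2 (7.54 to 11.6). MMP2, whose proenzyme they activate, had 0, 1 and 0 reads in control cells, clone 1 and clone 2. It was chosen for its role after the values were seen.

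Below TIMP1, the order of levels differed between the libraries. PLAUR was above TIMP2 in control cells, at a ratio of 1.11 (1.01 to 1.21), and in clone 2, at 1.94 (1.80 to 2.10), and not separable from it in clone 1, at 0.944 (0.849 to 1.05). PLAU was above MMP14 in control cells and clone 2, where MMP14 was 0.557 times (0.450 to 0.688) and 0.236 times PLAU (0.185 to 0.298), and in clone 1 the ratio was 1.11 with an interval of 0.725 to 1.71. MMP7 and MMP13 could not be ordered in control cells, at a ratio of 1.22 (0.281 to 5.30), or in clone 1, at 1.22 (0.0884 to 16.8).

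**Figure D3:**
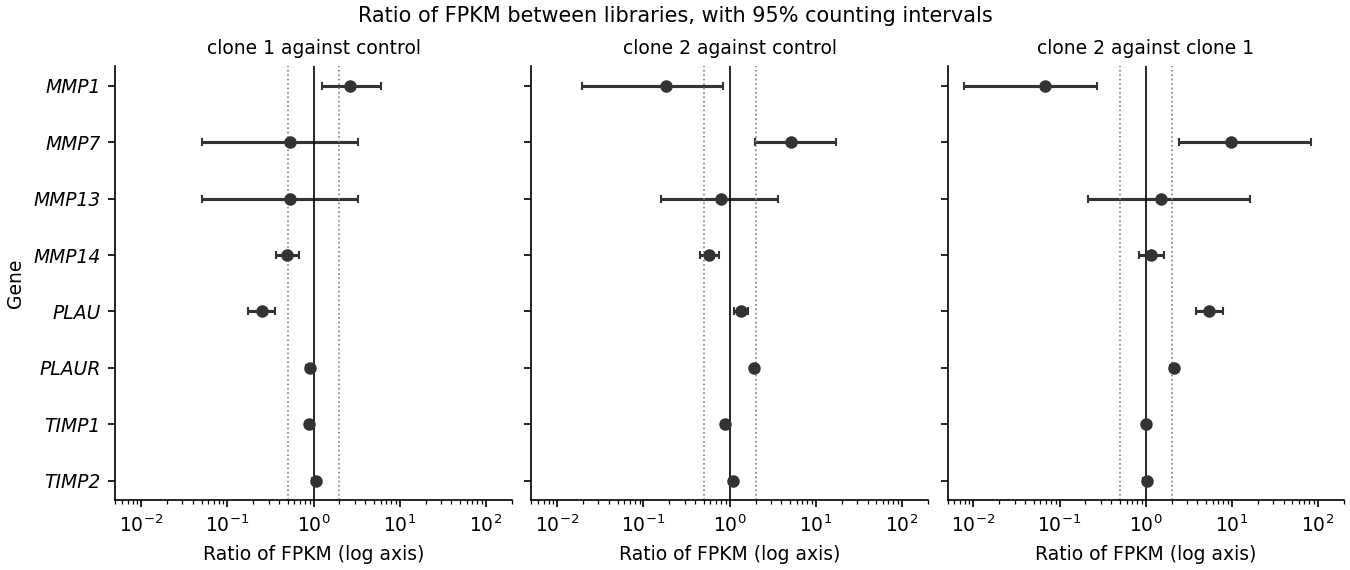
Ratio of FPKM (log axis) for the 8 genes with reads, in clone 1 against control, clone 2 against control and clone 2 against clone 1. Points are ratios of single libraries, bars are 95% exact counting intervals, the solid line marks no difference and dotted lines mark 2-fold. Between the clones PLAU, PLAUR and MMP7 lie above 2-fold, MMP1 far below, and TIMP1 and TIMP2 on the line.

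The genes were then counted by a fixed rule, a ratio of at least 2-fold after 1 FPKM was added to each value, among genes with a mean of at least 1 FPKM. Of the 9 genes, 4 passed that filter, PLAU, PLAUR, TIMP1 and TIMP2. None of the 4 was called in clone 1 against the control or in clone 2 against the control, where 2.02% and 2.06% of all 11675 genes were called, or in the same direction in both clones, where 0.325% were. Between the clones 1 was called, PLAU, with a log2 ratio of 1.12, against 4.19% of all genes, and PLAUR fell just short of the threshold, at 0.92. Adding 1 FPKM shrinks the ratios of low genes, so a 2-fold rule on plain FPKM was also used, with 3 reads as the lowest value allowed. On that scale 8 of the 9 genes had at least 3 reads in some library. In clone 1, 3 of the 8 were called (MMP1 higher, PLAU and MMP14 lower) against 15.3% of genes. In clone 2, 2 were called (MMP7 higher, MMP1 lower) against 17.3%. Between the clones 4 were called (MMP7, PLAU and PLAUR higher in clone 2, MMP1 lower) against 19.8%, and none was called in the same direction in both clones, against 4.4%. For MMP1 and PLAU the control value lay between the clones, and the counting intervals of both ratios to it excluded no difference. It also lay between them for MMP7 and PLAUR, but there the interval of clone 1 against the control reached no difference. The share of all genes with the control between the clones was not counted. The ratios of the 2 clones to the control share 1 library and are not independent.

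Around these genes, 8 lists of further proteases, inhibitors, cofactors and substrates were examined, 110 genes in all, of which 52 had a mean of at least 1 FPKM. On the log2(FPKM + 1) scale 1 of the 52 (1.92%) was called lower in clone 1 and 1 (1.92%) higher in clone 2 against the control, beside 2.02% and 2.06% of all genes. Between the clones 4 (7.69%) were called, 2 higher and 2 lower in clone 2, beside 4.19% of all genes. The median log2 ratio of the 52 was 0.12 in clone 1, 0.07 in clone 2 and -0.09 between the clones, beside 0.04, -0.01 and -0.05 over all 11675 genes. None was called in the same direction in both clones, beside 0.325% of all genes.

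Among 18 other metalloproteinases 2 passed the filter and neither was called. MMP15, another membrane-type enzyme, was the most abundant member of the MMP family measured, at 13.0 FPKM in the control library, 15.7 in clone 1 and 14.5 in clone 2. MMP24, also of the membrane type, was at 1.16, 0.942 and 1.22 FPKM. MMP15 was thus higher in both clones than in the control where MMP14 was lower, by log2 ratios of 0.25 and 0.15. The other metalloproteinases of this list were left out by the filter, and not all of them were steady. MMP28 was at 0.0885, 1.17 and 0.0220 FPKM in control cells, clone 1 and clone 2 (12, 119 and 3 reads). MMP11 was lowest in clone 1, at 0.326, 0.141 and 0.328 FPKM. Both were chosen after their values were seen.

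Among 8 other inhibitors and partners of metalloproteinases 5 passed and 2 were called in at least 1 comparison. LCN2, which binds MMP9 and protects it from breakdown, was at 8.45 FPKM in control cells, 1.16 in clone 1 and 142 in clone 2. It had the same order of libraries as PLAU, while MMP9 itself had no reads. TIMP4 was at 2.49, 5.82 and 2.01 FPKM and was called between the clones, with a log2 ratio of -1.18. Inhibitor genes were thus not all steady. BSG, a surface glycoprotein known to induce metalloproteinases, was at 193, 201 and 187 FPKM.

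Among 16 other genes of the plasminogen system 8 passed and 1 was called. S100A10, which with ANXA2 forms a plasminogen receptor on the cell surface, was at 308, 514 and 187 FPKM in control cells, clone 1 and clone 2, the reverse of the order of PLAU, with a log2 ratio between the clones of -1.45. ENO1, a glycolytic enzyme that also binds plasminogen at the surface, was at 651, 565 and 552 FPKM. PLG, the plasminogen gene itself, was at 0 in all 3 libraries, and was chosen for its role after the values were seen.

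None of the genes that passed the filter was called among 5 ADAM and ADAMTS proteases, 10 membrane serine proteases and inhibitors, 12 cathepsins and cystatins and 6 matrix substrates. Genes left out by the filter were not counted. Among them CTSE was at 0.0158, 1.49 and 0 FPKM in control cells, clone 1 and clone 2, and TMPRSS4 at 0.663, 1.40 and 0.137 FPKM. TMPRSS3 was lowest in clone 1, at 0.905, 0.417 and 1.10 FPKM. ST14, the membrane serine protease matriptase, was at 103, 101 and 101 FPKM, and its inhibitor SPINT1 was at 62.7, 63.8 and 76.6 FPKM. The sheddase ADAM9 was at 19.9, 25.0 and 23.7 FPKM and ADAM15 at 32.7, 32.3 and 29.8 FPKM. The lysosomal protease CTSD was at 106, 89.7 and 86.0 FPKM, and CSTB, an inhibitor of cysteine cathepsins, at 88.4, 113 and 74.2 FPKM. Of the substrates, AGRN was at 23.4, 24.9 and 30.3 FPKM and SDC1 at 35.4, 37.3 and 27.6 FPKM. Among the 4 kallikreins that passed, 1 was called between the clones, KLK7, at 3.21 FPKM in control cells, 1.47 in clone 1 and 4.09 in clone 2. KLK6 was at 22.8, 20.7 and 24.0 FPKM and KLK1 at 8.67, 10.4 and 5.35 FPKM.

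**Figure D4:**
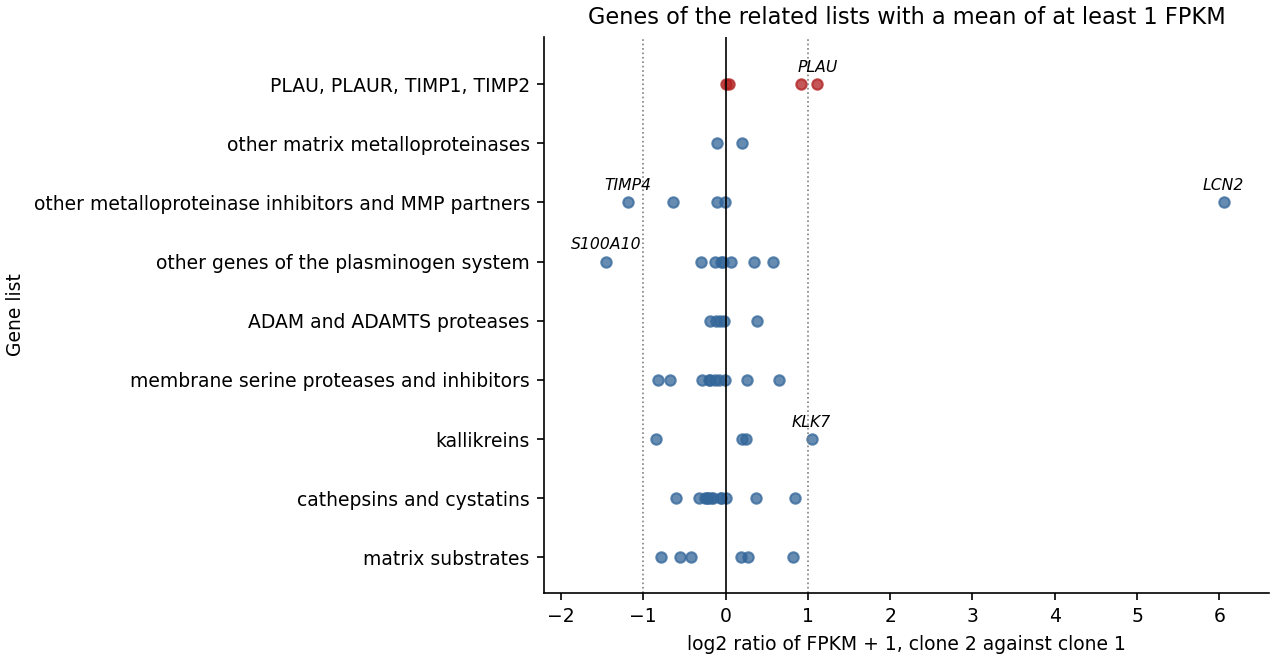
Log2 ratio of FPKM + 1 in clone 2 against clone 1 for the genes with a mean of at least 1 FPKM, by gene list, with PLAU, PLAUR, TIMP1 and TIMP2 in the top row. Each point is 1 gene, dotted lines mark 2-fold, and names are given past 2-fold. LCN2 lies far to the right, and S100A10 and TIMP4 lie past 2-fold on the left.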

How the data were processed

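RNA-Seq data of 3 libraries were analysed, 1 of DLD1 control cells and 2 of BEX2-/- DLD1 cells, grouped by the sample labels. The authors extracted RNA with Trizol, used the Illumina TruSeq RNA kit and deposited FPKM values per gene. The submitters' processing notes list hg19, Trim Galore 0.3.7, STAR 2.5, Cufflinks 2.2.1 and DESeq 1.22.1, without saying which step made the values, and the annotation is not given in the sources used here. DESeq needs counts of all genes and was not run. The labels show the same run date and lane for all libraries.

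Symbols, positions and merged exon lengths came from GENCODE release 29 (GRCh38), which held 56996 of the 60504 identifiers. The FPKM table holds no coordinates. Depth was the value at which most low FPKM values, times exon length, became whole (within 0.02 of a whole number). This held for 98.7% to 98.8% of values under 50 reads of genes with a single transcript and for 88.1% to 89.0% of the others. The kit does not mark strand, so reads of overlapping antisense genes cannot be told apart.

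Ratios were taken of FPKM + 1, with a minimum mean of 1 FPKM and a 2-fold threshold. The genes named by rule were the 9 genes, BEX2 and, in each of the 8 lists of related genes, the 2 most abundant genes and up to 6 called genes. Other genes, cell type markers included, were named after their values were seen. Members and lists were chosen with earlier results of these data known. Alternatives changed the pseudocount (0.1 FPKM or none), the scaling, the filter, the threshold (1.5-fold) and the clones used, and plain ratios without a filter were added after the data were seen. Calling and depth recovery were tested on simulated data. RefSeq start windows for MMP1, MMP9, MMP13 and TIMP2 and protein sequences were not used here. Computation used scipy 1.17.1, pandas 2.3.3, numpy 2.4.6 and matplotlib 3.10.9 under Python 3.11.15.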

Additional observations from a re-analysis of the deposited data

How the results depend on the processing

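With 1 control library, no setting can show how much control cells vary, and the clones share that control. Over 96 member ratios recomputed under other pseudocounts and scalings, 1 changed sign, MMP13 between the clones, from 0.014 to -0.0080 on the log2 scale with a floor of 3 reads, and 46 moved by more than their spread or counting error. Ratios of TIMP1 to the control lay between -0.24 and -0.12 in clone 1 and between -0.18 and -0.11 in clone 2. How alike the clones were for TIMP1 depended on the scaling. The log2 ratio of clone 2 to clone 1 was 0.00040 in the main setting and 0.063 with median-ratio scaling. No paired analysis was possible with 1 control library, and no test was made.

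PLAU in clone 1 passed 2-fold, as 1 member, with a pseudocount of 0.1 FPKM, with none and with TPM scaling. Between the clones these settings gave 2 members, PLAU and PLAUR, as did a 1.5-fold threshold, and a mean of at least 5 FPKM gave 0. The 1.5-fold threshold gave 1 member in clone 1 (PLAU) and 1 in clone 2 (PLAUR). Without a pseudocount or a filter, and with a floor of 3 reads, 3, 2 and 4 members passed in clone 1, clone 2 and between the clones. No member passed in the same direction in both clones under any of these settings, and MMP1, without pseudocount and filter, passed in opposite directions. MMP14, at plain ratios of 0.498 and 0.581, was under the filter of 1 FPKM and so could not be called at 1.5-fold. Plain ratios without the filter were counted at 2-fold only.

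Over all genes, clone 1 gave 456 genes with a pseudocount of 0.1 FPKM, 488 with none, 1028 with TPM scaling, 83 at 5 FPKM, 730 at 1.5-fold and 3436 without pseudocount and filter, against 236. Clone 2 gave 507, 553, 1090, 100, 973 and 3943 genes, against 241, and clone 2 against clone 1 gave 863, 916, 1515, 222, 1444 and 4489, against 489. Both clones gave 88, 91, 287, 6, 137 and 1046 genes, against 38, and leaving out either clone leaves the count of the other alone, 236 or 241. TPM values are larger numbers than FPKM, so that setting changed the reach of the pseudocount and of the filter together.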
